A study of Homo sapiens with 24 samples.

Results

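The Sprouty and SPRED genes encode inhibitors of signalling from receptor tyrosine kinases, and 6 of them (SPRY1, SPRY2, SPRY4, SPRED1, SPRED2 and SPRED3) were taken by gene symbol from the 25341 genes of the series. All 6 passed the filter on low values, a mean of at least 1 TPM, although SPRED3, at a mean of 1.24 TPM, was only just above it. The cells were U2OS, a human osteosarcoma line, made to carry a Tet-off switch for TOB2, a member of the antiproliferative BTG/TOB family that binds the CCR4-NOT deadenylase. Newly made RNA was marked with bromouridine, the label was chased for 0, 0.5, 1, 2, 4 or 6 h, and labelled RNA was recovered from the cytoplasm with an antibody to bromouridine. The induced arm was grown without doxycycline and made the phosphomimetic TOB2 mutant S254D, whereas the uninduced arm kept doxycycline in the medium, so the effects of the drug and of the mutant cannot be told apart. Each arm had 2 libraries per chase time, 24 in all with the replicate numbers 1 and 2. Whether the 2 came from separate cultures is not given in the labels, so the spread between libraries behind the p-values may be technical. For slopes, that spread also holds the departure of the group means from a straight line.

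Receptor tyrosine kinases pass growth factor signals through adaptors such as GRB2 to RAS, RAF, MEK and ERK. Sprouty proteins share a cysteine-rich C-terminal domain, become phosphorylated on a conserved tyrosine after growth factor stimulation and damp the route to ERK; their genes are themselves switched on by ERK signalling, which closes a negative feedback loop. SPRED proteins join the Sprouty-related domain to an N-terminal EVH1 domain, through which SPRED1 brings the RAS GTPase-activating protein neurofibromin (NF1) to the membrane, and inherited loss of SPRED1 causes Legius syndrome.

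Values are TPM (abundance of a transcript relative to the rest of its library, corrected for length, so that levels of different genes can be set side by side). Sequencing depth is unknown, and a slope or difference is relative to the other labelled RNAs of that library. RMRP, MIR6723 and RPPH1 together took 7.14% to 27.5% of the TPM of a library, with the top share in the induced replicate 2 libraries at 0 and 0.5 h, and between 12594 and 13757 genes reached 1 TPM. TOB2 averaged 585 TPM in induced and 257 TPM in uninduced cells at 0 h, and induced libraries were above uninduced ones at all 6 times. Osteoblast markers were sparse in this line: 3 of 10 (RUNX2, BGLAP and COL1A1) passed the filter, their list summed to 14.2 to 29.5 TPM in induced and 10.2 to 22.3 TPM in uninduced libraries, and IBSP was listed at 0 throughout. Epithelial markers (3 of 10 kept; KRT8, KRT18 and CLDN4) summed to 1769 to 4191 TPM in induced and 1741 to 2894 TPM in uninduced libraries, with EPCAM listed at 0. Leukocyte markers (3 of 11 kept; CD14, LYZ and CD68) summed to 25.3 to 72.5 TPM in induced and 22.0 to 52.7 TPM in uninduced libraries, with MS4A1 and TYROBP listed at 0.

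SPRY1, SPRY2 and SPRY4 fell steeply over the chase in both arms relative to the rest of the labelled pool, and SPRED3 fell by less. SPRED1 and SPRED2 were at 81.6% to 128% of their starting level at 6 h, and in uninduced cells had first risen, to 172% of it for SPRED1 and 125% for SPRED2 at 4 h. Late in the chase SPRY2 was lower in induced cells, at 0.577 times the uninduced level, and SPRY1, SPRED1 and SPRED2 were lower by smaller margins. The calls of SPRY1, SPRED1 and SPRED2 were lost in several alternatives, and neither 4 h nor 6 h alone gave them. None of the 6 differed between the arms by test at 0 h.

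SPRY2, the most abundant member at the start, had 200.4 and 180.2 TPM in induced libraries at 0 h, against 191.1 and 222.4 TPM in uninduced libraries. At 0.5 h it had 208.4 and 169.7 TPM in induced libraries, against 204.4 and 195.8 TPM in uninduced libraries, and at 1 h 233.9 and 189.0 TPM against 252.3 and 201.0 TPM in uninduced libraries. The arms overlapped at these early times, and the group means of both were highest at 1 h. At 2 h SPRY2 had 132.6 and 134.7 TPM in induced libraries, against 171.2 and 149.3 TPM in uninduced libraries. At 4 h it had 35.6 and 33.2 TPM in induced libraries, against 68.6 and 53.5 TPM in uninduced libraries, and at 6 h 16.1 and 13.6 TPM in induced libraries, against 27.0 and 25.5 TPM in uninduced libraries. From 2 h on, both induced libraries were below both uninduced libraries at every time. By 6 h the mean was 7.80% of its 0 h value in induced cells and 12.7% in uninduced cells.

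SPRY4, like the other Sproutys an inhibitor acting upstream of ERK, had 97.1 and 107.6 TPM in induced libraries at 0 h, against 99.1 and 98.2 TPM in uninduced libraries. At 0.5 h it had 82.0 and 82.2 TPM in induced libraries, against 79.7 and 74.4 TPM in uninduced libraries, and at 1 h 79.7 and 72.7 TPM in induced libraries, against 85.6 and 64.9 TPM in uninduced libraries. The fall was thus under way within the first hour. At 2 h SPRY4 had 59.8 and 54.0 TPM in induced libraries, against 61.0 and 52.7 TPM in uninduced libraries, and at 4 h 22.2 and 22.7 TPM in induced libraries, against 26.1 and 18.8 TPM in uninduced libraries. SPRY4 was the only member whose group mean was highest at 0 h in both arms, and its arms overlapped at 0, 1, 2 and 4 h. At 6 h it had 7.72 and 6.40 TPM in induced libraries, against 9.43 and 8.45 TPM in uninduced libraries, where both induced libraries were the lower ones. SPRY1 was scarcer, with 23.3 and 26.0 TPM in induced libraries at 0 h, against 24.0 and 24.6 TPM in uninduced libraries. From 0.5 to 2 h it lay between 18.7 and 26.3 TPM in induced libraries and between 17.0 and 28.2 TPM in uninduced libraries. Its mean at 2 h was 78.2% of the 0 h value in induced and 83.4% in uninduced cells. It had 4.15 and 4.90 TPM in induced libraries at 4 h, against 6.45 and 5.33 TPM in uninduced libraries, and 2.18 and 2.36 TPM in induced libraries at 6 h, against 3.92 and 2.99 TPM in uninduced libraries. For SPRY1 both induced libraries were below both uninduced libraries at 4 and at 6 h.

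SPRED1, the member that brings neurofibromin to the membrane, had 39.4 and 29.6 TPM in induced libraries at 0 h, against 31.6 and 29.8 TPM in uninduced libraries. At 2 h it had 49.1 and 45.6 TPM in induced libraries, against 43.9 and 40.9 TPM in uninduced libraries, so that both arms had gained and the induced libraries were the higher ones. At 4 h SPRED1 had 43.2 and 39.9 TPM in induced libraries, against 57.3 and 48.5 TPM in uninduced libraries, and at 6 h 31.2 and 25.04 TPM in induced libraries, against 45.3 and 33.1 TPM in uninduced libraries. The group mean was highest at 2 h in induced and at 4 h in uninduced cells, and at 6 h it was 81.6% of its 0 h value in induced and 128% in uninduced cells. SPRED2, a close relative with the same domain order, had 69.2 and 68.5 TPM in induced libraries at 0 h, against 63.5 and 70.4 TPM in uninduced libraries. At 2 h it had 80.7 and 75.6 TPM in induced libraries, against 78.3 and 75.4 TPM in uninduced libraries, where the arms overlapped. At 4 h SPRED2 had 73.1 and 78.4 TPM in induced libraries, against 87.5 and 79.3 TPM in uninduced libraries, and at 6 h 60.9 and 57.1 TPM in induced libraries, against 74.6 and 68.7 TPM in uninduced libraries. As for SPRED1, its mean was highest at 2 h in induced and at 4 h in uninduced cells, and both induced libraries were below both uninduced libraries at 4 and 6 h.

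SPRED3, whose KIT-binding region is divergent from that of the other SPREDs, lay between 0.52 and 2.01 TPM in induced libraries and between 0.61 and 1.72 TPM in uninduced libraries. It was highest at 1 h in both arms by group mean, and the arms overlapped at 4 and 6 h. At this level the pseudocount of 1 TPM used in the tests is as large as the measurement, so its fitted changes are understated.

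**Figure D1:**
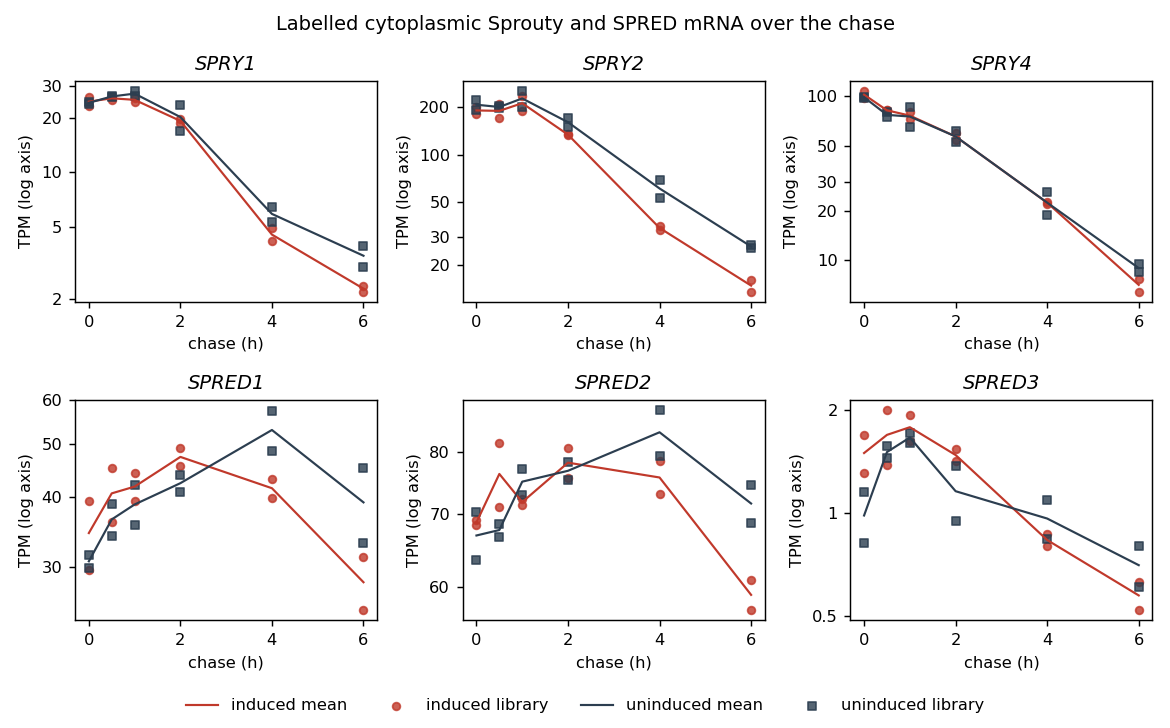
Labelled cytoplasmic RNA of the 6 genes by hours of chase, in TPM on log axes of differing range. Circles are single induced libraries and squares single uninduced libraries, and lines join the means of each pair. The SPRY panels drop over the chase, to 14.9 TPM in induced and 26.2 TPM in uninduced cells for SPRY2 at 6 h, while the SPRED1 and SPRED2 means peak at 2 h in induced and at 4 h in uninduced cells.

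The makeup of the labelled family turned over along the chase. At 0 h the 3 Sproutys made up 74.4% and 75.9% of the summed TPM of the 6 genes in induced libraries, against 76.6% and 77.4% in uninduced libraries. At 4 h the share was 34.6% and 33.8% in induced libraries, against 40.9% and 37.6% in uninduced libraries, and at 6 h 21.9% and 21.3% in induced libraries, against 25.1% and 26.5% in uninduced libraries. In both arms the order of mean levels at 0 h was SPRY2, SPRY4, SPRED2, SPRED1, SPRY1 and SPRED3. At 6 h it was SPRED2, SPRED1, SPRY2, SPRY4, SPRY1 and SPRED3.

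**Figure D2:**
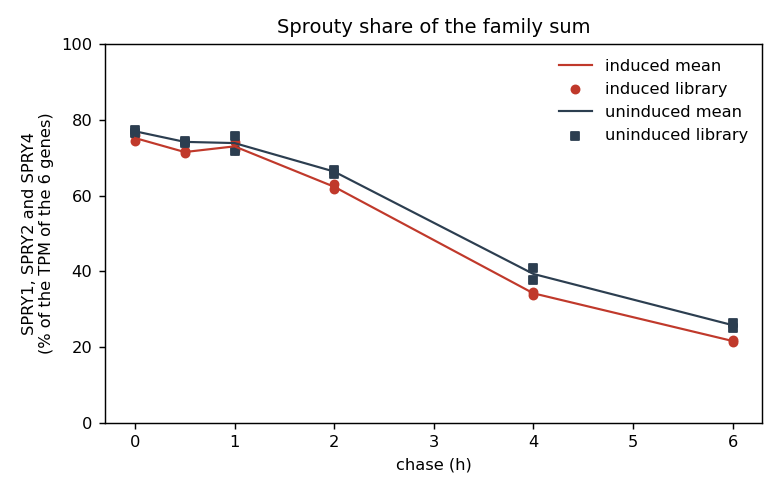
Share of SPRY1, SPRY2 and SPRY4 in the summed TPM of the 6 genes (percent, vertical axis) by hours of chase. Circles are induced and squares uninduced libraries, and lines join the means; the share at 6 h lies at 21.3% to 21.9% in induced and 25.1% to 26.5% in uninduced libraries.

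A straight line of log2(TPM + 1) on hours of chase, fitted in limma, gave the steepest slopes of the family to the Sproutys. The slope of SPRY2 was -0.66 per hour in induced cells (adjusted p = 1.72e-12) and -0.52 in uninduced cells (adjusted p = 1.89e-10), which correspond to 1.51 h and 1.92 h per halving on that scale. These average a late start and a faster fall. At 1 h the means in induced and uninduced cells were 111% and 110% of the 0 h value for SPRY2, and 102% and 112% for SPRY1. By 6 h the SPRY2 mean was 0.111 times its 2 h value in induced and 0.164 times in uninduced cells. SPRY4 fell at -0.61 per hour in induced cells (adjusted p = 2.75e-15) and -0.55 in uninduced cells (adjusted p = 2.56e-14), and SPRY1 at -0.56 in induced cells (adjusted p = 2.38e-11) and -0.49 in uninduced cells (adjusted p = 4.93e-10). The 95% intervals of the 3 Sproutys overlapped between neighbours in each arm, so their order was not resolved, but none overlapped that of SPRED3, the next in order. Only 0.410% of the 13416 genes tested had a lower slope than SPRY2 in induced cells, and 0.678% in uninduced cells. SPRED3 also fell, at -0.14 per hour in induced cells (adjusted p = 0.000179) and -0.074 in uninduced cells (adjusted p = 0.0249). SPRED1 had slopes of -0.054 in induced cells (adjusted p = 0.154) and 0.060 in uninduced cells (adjusted p = 0.119), and SPRED2 -0.036 (adjusted p = 0.0867) in induced cells and 0.023 (adjusted p = 0.274) in uninduced cells. In each arm 4 of 6 members thus fell and 0 rose, where 29.0% of all genes tested fell and 41.6% rose in induced cells, and 22.3% fell and 42.8% rose in uninduced cells. The median slope of the members was -0.35 in induced and -0.28 in uninduced cells, beside all-gene medians of 0.028 in induced and 0.039 in uninduced cells. Those medians depend on the scaling: median-of-ratios scaling moved the all-gene median by -0.032 per hour in induced and -0.044 in uninduced cells, under which 49.1% of calls were rises in induced cells and 48.4% in uninduced cells, instead of 58.9% in induced and 65.8% in uninduced cells. The small slopes of SPRED1 and SPRED2 lie within the reach of that shift: with it the slope of SPRED2 in uninduced cells was -0.025, and in induced cells both genes passed the test as falling, SPRED1 at -0.090 and SPRED2 at -0.072. Both also passed as falling in induced cells under quantile normalization, without RMRP, MIR6723 and RPPH1, with protein-coding transcripts, from 1 h on and without the induced replicate 2 libraries at 0 and 0.5 h, with slopes of -0.12 to -0.092 for SPRED1 and -0.10 to -0.047 for SPRED2. Under quantile normalization SPRED2 passed as falling in uninduced cells too (-0.059, adjusted p = 0.000208). The count of falling members, 4 in each arm, accordingly ran from 3 to 6 in induced and from 3 to 4 in uninduced cells over the alternatives. Over them the count of all falling genes ran from 2578 to 5242 in induced and from 1532 to 4332 in uninduced cells. A line is also a poor summary of these 2 genes, since up to 4 h both rose in uninduced cells, SPRED1 at 0.17 per hour (adjusted p = 0.000459) and SPRED2 at 0.078 (adjusted p = 0.00515). The SPRED3 fall in uninduced cells missed the threshold without either replicate series, without either uninduced 6 h library and with the chase cut at 4 h, with slopes of -0.087 to -0.053. Under quantile normalization it missed in both arms, at -0.045 in induced and 0.00033 in uninduced cells. Single libraries also mattered for the SPREDs: SPRED1 passed as falling in induced cells without induced replicate 2 at 0 h (-0.078) and as rising in uninduced cells without uninduced replicate 2 at 6 h (0.11), and SPRED2 as falling in induced cells without induced replicate 2 at 4 h (-0.043).

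Published start regions show what sequence members of either kind carry at their transcription starts; the chase itself follows RNA after it was made. RefSeq (GRCh38.p14) gave 11 promoter windows for the 6 genes, each from 250 bases before to 50 bases after a start. Windows of SPRY2 and SPRY4, the more abundant of the falling members, and of SPRED2, whose slope did not pass the test, are printed on the gene's strand with matches to CCGGAA, the core of ETS factor sites, and to TGACG, part of a cyclic AMP response element, on either strand in capitals; the searched motifs do not overlap here. They lie at chr13:80341077-80341376 (SPRY2, minus strand, the first of 3 entries), chr5:142324198-142324497 (SPRY4, minus strand) and chr2:65432550-65432849 (SPRED2, minus strand, the first of 2 entries).

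SPRY2: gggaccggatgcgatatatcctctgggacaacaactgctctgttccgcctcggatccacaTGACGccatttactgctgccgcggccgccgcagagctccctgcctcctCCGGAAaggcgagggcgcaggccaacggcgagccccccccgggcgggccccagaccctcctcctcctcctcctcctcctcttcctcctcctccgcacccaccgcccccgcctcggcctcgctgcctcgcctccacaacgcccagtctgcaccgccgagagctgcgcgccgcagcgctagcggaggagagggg
SPRY4: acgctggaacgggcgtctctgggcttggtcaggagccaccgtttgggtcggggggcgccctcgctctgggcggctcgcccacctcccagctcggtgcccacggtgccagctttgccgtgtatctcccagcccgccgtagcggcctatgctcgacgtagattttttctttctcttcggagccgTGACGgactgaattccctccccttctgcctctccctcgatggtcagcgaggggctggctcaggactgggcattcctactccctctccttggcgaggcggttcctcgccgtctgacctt
SPRED2: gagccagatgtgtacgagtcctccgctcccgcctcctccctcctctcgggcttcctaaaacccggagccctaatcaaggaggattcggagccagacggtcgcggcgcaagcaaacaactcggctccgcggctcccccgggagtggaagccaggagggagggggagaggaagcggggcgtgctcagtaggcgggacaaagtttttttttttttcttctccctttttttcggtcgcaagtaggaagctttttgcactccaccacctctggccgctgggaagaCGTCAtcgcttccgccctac

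CCGGAA was found in 2 of the 11 windows, the printed SPRY2 window and 1 of SPRY1, and in 17.2% of all 35116 RefSeq windows of that length. TGACG was found in 3 of 11, those of SPRY2, SPRY4 and SPRED2 printed here, where SPRED2 has it as CGTCA on the other strand, and in 24.6% of all windows. A match is a description of these letters only.

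Between the arms, the question was whether these mRNAs changed at different rates relative to the rest of the labelled pool. The slope difference, induced minus uninduced, was -0.14 per hour for SPRY2 (SE 0.0582, adjusted p = 0.312), -0.11 for SPRED1 (SE 0.0474, adjusted p = 0.310), -0.076 for SPRY1 (adjusted p = 0.640), -0.061 for SPRED3 (adjusted p = 0.575), -0.059 for SPRED2 (adjusted p = 0.344) and -0.053 for SPRY4 (adjusted p = 0.602). All 6 estimates were below 0, with a median of -0.068 beside -0.0094 for all genes, yet 0 of 6 passed the limma test, where 0.343% of all genes did. The SE in that test also held the departure of the group means from a line, not the spread between libraries alone. At an unadjusted p under 0.05 there were 3 members (SPRY2, SPRED1 and SPRED2) and 1673 of the 13416 genes. The 95% interval of the SPRY2 slope difference ran from -0.26 to -0.019. At 0 h the difference was -0.12 for SPRY2 (adjusted p = 0.943), 0.019 for SPRY1 (adjusted p = 0.994), 0.051 for SPRY4 (adjusted p = 0.978), 0.15 for SPRED1 (adjusted p = 0.931), 0.041 for SPRED2 (adjusted p = 0.968) and 0.33 for SPRED3 (adjusted p = 0.833). There too 0 of 6 passed, against 0.0298% of all genes. At an unadjusted p under 0.05 in that limma test there were 0 members and 881 of the 13416 genes.

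Levels late in the chase, averaged over 4 and 6 h, did separate. SPRY2 averaged 34.4 ± 1.70 TPM in induced and 61.1 ± 10.7 TPM in uninduced cells at 4 h (SD, n = 2 each), and its late difference was -0.79 on the log2(TPM + 1) scale (SE 0.106, adjusted p = 6.77e-05), a fold of 0.577. Only 1.51% of all genes had a lower late difference. SPRED1 averaged 28.1 ± 4.38 TPM in induced and 39.2 ± 8.58 TPM in uninduced cells at 6 h (SD, n = 2 each), with a late difference of -0.40 (adjusted p = 0.0317). SPRY1 averaged 2.27 ± 0.127 TPM in induced and 3.46 ± 0.658 TPM in uninduced cells at 6 h (SD, n = 2 each), with a late difference of -0.38 (adjusted p = 0.0168). SPRED2 averaged 59.0 ± 2.71 TPM in induced and 71.7 ± 4.14 TPM in uninduced cells at 6 h (SD, n = 2 each), with a late difference of -0.21 (adjusted p = 0.0411). SPRY4, at -0.14 (adjusted p = 0.394), and SPRED3, at -0.10 (adjusted p = 0.669), did not pass. Thus 4 of 6 members were lower and 0 higher, where 12.0% of all genes were lower and 4.19% higher, and the members' median was -0.29 beside 0.029 for all genes. At 4 h both induced libraries were below both uninduced libraries for 4 of 6 members, where this held for 23.1% of all genes, and at 6 h for 5 of 6, where it held for 28.4%. Earlier, both induced libraries were the lower ones for SPRY1 and SPRED2 at 1 h (9.91% of all genes) and SPRY2 at 2 h (13.9%), and the higher ones for SPRED3 at 0 h (16.2%), SPRY4 and SPRED2 at 0.5 h (21.6%), and SPRED1 and SPRED3 at 2 h (30.7%).

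Averaged over all 6 times, SPRY2 alone among the members was lower in induced cells, with a difference of -0.36 (SE 0.0611, adjusted p = 0.000517), where 11.4% of all genes were lower; SPRY1 had -0.16 (adjusted p = 0.0611), and passed without induced replicate 2 at 0 h (-0.17), uninduced replicate 1 at 2 h (-0.19) or uninduced replicate 2 at 6 h (-0.18). The SPRY2 late and mean differences passed in every alternative and with any single library left out, the late one between -0.88 and -0.70. The late call of SPRY1 was lost without replicate 1 of either arm at 4 h (-0.33 without the induced library, -0.32 without the uninduced one) or at 6 h (-0.36 without the induced library, -0.30 without the uninduced one). That of SPRED1 was lost without induced replicate 1 (-0.42) or 2 (-0.37) at 4 h, induced replicate 2 at 6 h (-0.32), or uninduced replicate 1 at 4 h (-0.34) or 6 h (-0.29). Replicate 1 of SPRED1 was above replicate 2 in every arm and time, so leaving out 1 library also changed the balance of replicates. In the 14 alternatives of other kinds the SPRED1 late call was kept in 10, with limma adjusted p from 0.000568 to 0.350. The late call of SPRED2 was lost without any 1 of the 4 induced libraries at 4 and 6 h, of the uninduced replicate 1 libraries at 4 and 6 h, or of the 6 uninduced libraries at 0.5, 1 and 2 h, with values of -0.23 to -0.17. Neither 4 h nor 6 h alone gave a call to SPRY1, SPRED1 or SPRED2, and nor did single transcripts. The SPRY1 call was also lost with a pseudocount of 5 (adjusted p = 0.0831), that of SPRED1 with no filter (0.0519), and that of SPRED2 with quantile normalization (0.102), median-of-ratios scaling (0.0771) or no variance trend (0.0585). The nuclear-retained RNAs MALAT1, NEAT1 and KCNQ1OT1 summed to 506 to 1098 TPM in induced and 233 to 569 TPM in uninduced libraries, and their part in these differences was not tested. In bulk libraries, fewer cells that make an mRNA and less of it per cell cannot be told apart.

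**Figure D3:**
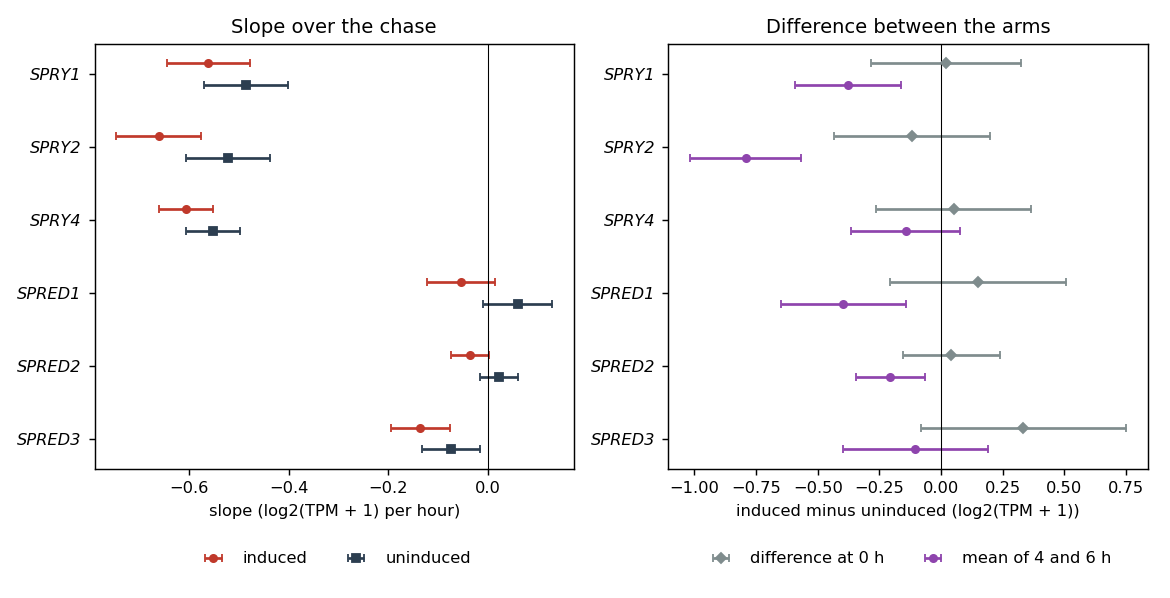
Left, slopes of log2(TPM + 1) per hour of chase for the 6 genes, induced above uninduced for each gene. Right, differences induced minus uninduced at 0 h and averaged over 4 and 6 h, on the log2(TPM + 1) scale. Points are limma estimates and bars 95% intervals; the late interval of SPRY2, -1.02 to -0.57, is the one farthest below 0.

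SPRY2 and SPRED1 have 1 transcript entry each (NM_005842 and NM_152594), so their gene values are those of that transcript. SPRY4 was 93.9% NM_001127496, whose slope was -0.63 per hour in induced and -0.54 in uninduced cells and whose late difference of -0.36 had an adjusted p of 0.0566 over 21749 transcripts. SPRED2 was 91.8% NM_181784, with slopes of 0.012 in induced cells and 0.065 in uninduced cells. The other SPRED2 entry held 8.24% of the TPM, was listed at 0 in 11 libraries and had slopes of -0.64 in induced and -0.58 in uninduced cells. The SPRED2 slopes given above are of the sum of both entries. Its main entry was fitted only with the main scaling over the full chase, where the gene was not called falling either. Whether the falls called under other settings hold in that entry was not tested. SPRY1 was split among NM_001258039 (46.0%), NM_001258038 (43.0%) and NM_005841 (10.3%), of which NM_001258039 ranged from 0 to 18.3 TPM over the libraries; reads shared by such entries leave their separate levels uncertain. SPRED3 was 69.6% NR_073032, listed at 0 in 7 libraries, and 30.4% NM_001042522, listed at 0 in 16 libraries.

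The other genes of the cascade that the family restrains were counted by list, with some genes, such as NF1, in more than 1 list. Of all 13416 genes tested, 42.8% rose and 22.3% fell in uninduced cells, and late in the chase 4.19% were higher and 12.0% lower in induced cells. The core list held RAS, RAF, MEK and ERK genes and a few scaffold or adaptor genes of that route. Of these, 14 of 16 genes measured rose relative to the pool over the uninduced chase and 0 fell. Their median slope was 0.17 per hour beside 0.039 for all genes. MAP2K1, which encodes MEK1, rose at 0.30 (adjusted p = 3.25e-09). In the late difference 0 of these 16 genes passed in either direction. Of the receptor tyrosine kinases 7 of 15 rose in uninduced cells and 1 fell, a share of rises near that of all genes. Late in the chase 5 of the 15 were higher in induced cells and 0 lower, where 4.19% of all genes were higher, among them FGFR4 at 0.45 (adjusted p = 0.0117). Of the ligands 4 of 11 rose in uninduced cells and 1 fell, and 2 were lower late in induced cells, shares near those of all genes. FGF2 was one of those lower, at -0.77 (adjusted p = 0.000692). Of the adaptors and exchange factors 6 of 12 rose and 0 fell, where 42.8% of all genes rose and 22.3% fell. Late in the chase 4 of the 12 were lower in induced cells, where 12.0% of all genes were, including CRK at -0.46 (adjusted p = 5.24e-05), and 1 was higher.

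Among direct partners and regulators of the family, 12 of 16 rose in uninduced cells and 4 fell, where 42.8% of all genes rose and 22.3% fell. Late in the chase 3 of the 16 were lower in induced cells and 0 higher, where 12.0% of all genes were lower. SIAH2, a ubiquitin ligase that acts on SPRY2, averaged 61.3 ± 1.195 TPM in induced and 140 ± 1.53 TPM in uninduced cells at 6 h (SD, n = 2 each), with a late difference of -0.94 (adjusted p = 2.54e-08). KBTBD7, an adaptor of the ubiquitin ligase that acts on NF1, had -0.82 (adjusted p = 7.30e-05). NF1, the partner of SPRED1, had 0.31 (adjusted p = 0.0837), with 29.3 ± 5.23 TPM in induced and 22.5 ± 1.36 TPM in uninduced cells at 6 h (SD, n = 2 each). Of the 9 genes measured for RAS GTPase-activating proteins and proteins related to them, NF1 and IQGAP1 included, 3 rose and 2 fell in uninduced cells. These shares were near those of all genes, and 0 of the 9 passed in the late difference.

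Other feedback inhibitors and ERK output transcripts had median slopes below 0, beside 0.039 for all genes, of which 22.3% fell and 42.8% rose in uninduced cells. In the late difference the all-gene median was 0.029, with 12.0% of genes lower and 4.19% higher in induced cells. Of 22 other feedback inhibitors of receptor kinases and ERK, 13 fell and 7 rose in uninduced cells (median slope -0.11), and late in the chase 8 were lower and 0 higher in induced cells (median -0.22). DUSP1, a phosphatase of ERK and other MAP kinases, averaged 59.4 ± 1.51 TPM in induced and 152 ± 30.4 TPM in uninduced cells at 6 h (SD, n = 2 each) and had a slope difference that passed the test, -0.19 per hour (adjusted p = 0.0263). DUSP7, an ERK phosphatase, had a late difference of -0.67 (adjusted p = 9.82e-05), and SOCS3, an inhibitor of cytokine receptor signalling, -0.49 (adjusted p = 2.88e-05). Of 16 ERK output transcripts 11 fell and 3 rose in uninduced cells (median slope -0.27), and 7 were lower and 0 higher late in induced cells (median -0.31). PHLDA1 averaged 22.5 ± 1.40 TPM in induced and 41.6 ± 4.35 TPM in uninduced cells at 6 h (SD, n = 2 each), with a late difference of -0.77 (adjusted p = 9.70e-05). The transcription factor genes FOSL1, at -0.70 (adjusted p = 0.000807), and MAFF, at -0.81 (adjusted p = 0.000239), were also lower. These genes were named for a small p, and most genes of both lists did not pass late, nor did SPRY4; no difference between genes was tested.

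**Figure D4:**
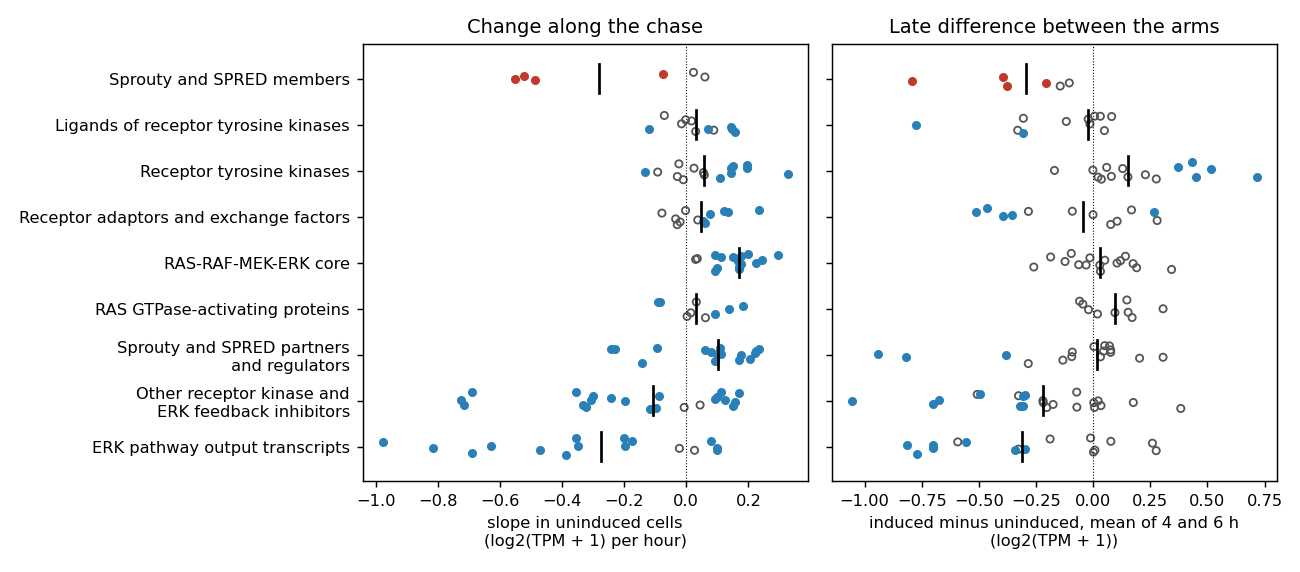
Slope in uninduced cells in log2(TPM + 1) per hour (left) and late difference, induced minus uninduced, on the log2(TPM + 1) scale (right) for each gene measured of the family (red) and of the pathway lists (blue where filled). Filled points passed the limma test at an adjusted p under 0.05, open points did not, and the bars mark medians, which on the right are -0.29 for the 6 members, -0.22 for the other feedback inhibitors and -0.31 for the ERK output transcripts.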

How the data were processed

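Labelled cytoplasmic RNA was compared in 24 libraries. The authors deposited TPM per RefSeq transcript, and per the submitters' processing notes Trim Galore, Bowtie2, RSEM 1.3.0 and hg19 were used, with roles not given. TPM was summed per symbol (3 transcripts without one were at 0). Genes averaging 1 TPM or more over the libraries were kept (13416 of 25341). Depth is unknown, so no counting error could be given.

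limma 3.58.1 in R 4.3.3 was fitted on log2(TPM + 1) of all kept genes with a variance trend: a line on hours per arm (20 residual degrees of freedom) and 12 group means (12 residual degrees of freedom). Tests were two-sided with Benjamini-Hochberg adjustment over all kept genes and a threshold of 0.05. The fits were tested on simulated data. The table was read with data.table (version 1.17.8), and figures were made using matplotlib 3.10.9 under Python 3.11.15.

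The members and gene lists were chosen with earlier results of these data known. Besides the members and TOB2, the names allowed were up to 4 genes per list with the smallest p in the slope difference and up to 2 in the uninduced slope, the 3 genes nearest each member, and member transcripts holding at least 10% of their gene. Same-numbered libraries deviated together only weakly over all genes (r of 0.020 to 0.16 by time), and the main fits had no replicate term. For SPRED1, however, replicate 1 was above replicate 2 in every arm and time, and that offset stayed in the residual spread. Alternatives covered the pseudocount, filter, scaling, replicate block, variance trend, chase range, transcripts and left-out libraries.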

Additional observations from a re-analysis of the deposited data

How the results depend on the processing

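Of the alternatives for the members, 1269 values kept direction and call, 41 lost a call, 24 gained one with the same sign and 28 changed sign, with or without a call. Leaving out a library at a time that a 0 h or late difference does not use cannot move that estimate. Many of the values that kept direction were thus fixed in advance, and the tally is no measure of robustness. Without the induced replicate 2 libraries at 0 and 0.5 h together, and with 4 h or 6 h alone, were chosen after seeing the data. Slope difference calls over all genes (46) numbered 88 with a pseudocount of 0.1, 25 with 5, 30 with no filter, 84 with a 5 TPM filter, 179 with quantile normalization, 328 without RMRP, MIR6723 and RPPH1, 400 with protein-coding transcripts, 99 with the replicate block, 0 up to 4 h, 27 from 1 h on, 7 with single transcripts and 328 without the 2 induced libraries. The 0 h calls (4) numbered 7 with quantile normalization, 8 without the 3 RNAs, 10 with protein-coding transcripts, 11 with the replicate block and 2 with no variance trend. Falling genes in induced cells (3897) numbered 2578 up to 4 h. In uninduced cells (2993) they numbered 1977 with the 5 TPM filter and 1532 up to 4 h. Smaller moves, up or down, are not listed singly. The full ranges of falling genes were 2578 to 5242 in induced and 1532 to 4332 in uninduced cells. Filters and single transcripts also changed the number tested. Genes called lower late (1608) numbered 1051 with single transcripts, 523 at 4 h alone and at most 1995 in the other alternatives. Members called lower late (4) numbered 1 at 4 h alone and 1 at 6 h alone. Members called lower in the mean difference (1) numbered 2 with a pseudocount of 0.1, quantile normalization, median-of-ratios scaling and the replicate block, the added one being SPRY1. Members rising in uninduced cells (0) numbered 2 up to 4 h.

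With libraries or a replicate series left out, slope difference calls ran from 0 to 164, 0 h calls from 0 to 5, falling genes in uninduced cells from 1815 to 3145, members lower late from 1 to 4, members lower in the mean from 1 to 2 and members rising in uninduced cells from 0 to 1. Their 0 h values ran from -0.049 to 0.35 for SPRED1, -0.032 to 0.11 for SPRED2, -0.057 to 0.094 for SPRY1 and -0.022 to 0.13 for SPRY4, and the SPRY4 mean difference from -0.057 to 0.019. Leaving out a replicate series leaves no residual degrees of freedom for levels, so no such fit was made.

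Signs changed for induced slopes up to 4 h (SPRED1 0.054, SPRED2 0.025) and with single transcripts (SPRED2 0.012), and for uninduced slopes under quantile normalization (SPRED1 -0.011, SPRED2 -0.059, which passed as falling, SPRED3 0.00033), median-of-ratios scaling (SPRED2 -0.025), without the 3 RNAs (SPRED2 -0.015), with protein-coding transcripts (SPRED2 -0.022) and from 1 h on (SPRED2 -0.0077). They changed for 0 h differences under quantile normalization (SPRY1 -0.030), median-of-ratios scaling (SPRY1 -0.039, SPRY4 -0.0080, SPRED2 -0.018), single transcripts (SPRY1 -0.29) and without the 2 induced libraries (SPRY1 -0.057, SPRY4 -0.022). The SPRY4 mean difference was 0.0016 without the 3 RNAs and 0.011 with protein-coding transcripts, that of SPRED1 0.021 without the 2 induced libraries, and the SPRY4 late difference 0.017 at 4 h alone. The share of late calls that were higher was 25.9%, against 37.1% with median-of-ratios scaling and 41.5% with quantile normalization. The cause was not tested. Same-numbered libraries correlated in their deviations at 0.020 to 0.16 by time. With 2 libraries a group, small differences between the arms cannot be resolved, and no value here has a counting error.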

Other observations

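Of 7 other genes for EVH1-domain proteins measured, relatives of the SPREDs by that domain, 7 rose relative to the pool in uninduced cells and 0 fell, where 42.8% of all genes rose and 22.3% fell. ENAH, an actin regulator, rose there at 0.17 per hour (adjusted p = 2.26e-08). In induced cells 4 of the 7 rose and 1 fell, where 41.6% of all genes rose and 29.0% fell. Gene lists were counted only with the main scaling. Late in the chase 1 was higher and 2 were lower in induced cells, where 4.19% of all genes were higher and 12.0% lower.

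By Pearson's r of the 12 group means of log2(TPM + 1), which share their libraries, over 10380 candidate genes, the nearest to SPRY2 were PELO (0.997), TIPARP (0.997) and RPP38 (0.996). Those nearest to SPRY1 were KBTBD8 (0.995), ZNF543 (0.995) and ZNF16 (0.994), and to SPRY4 C11orf86 (0.995), ZBTB9 (0.994) and KCNJ18 (0.994). SPRED1 lay nearest to NR3C1 (0.969), RIOK2 (0.964) and TMEM41A (0.954), SPRED2 to ADNP (0.971), FAM210A (0.967) and RFX7 (0.962), and SPRED3 to DYDC1 (0.968), ZNRF3-AS1 (0.968) and FDPSP2 (0.967).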
